A study of Caenorhabditis elegans with 2 samples.

Results

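Peaks of the transcription factor UNC-42 on the X chromosome of Caenorhabditis elegans were chosen by position alone, as every entry on X in the optimal peak list on the ce11 build. There were 1048 of them among 4780 optimal peaks on 6 nuclear chromosomes. The optimal list holds peaks that passed a threshold of the irreproducible discovery rate (IDR), a measure of how well peak ranks repeat between replicates. The chromatin came from whole late embryos of hermaphrodite strain OP173, a transgenic line carrying UNC-42 with GFP-FLAG at its C terminus, 3 hours after synchronisation by egg bleaching. Both libraries belong to 1 group of 2 biological replicates, so there was no second condition and no wild-type or untagged group. Chromatin was recovered with an antibody against GFP per the description, while the antibody entry of the labels reads unc-42. Because whole animals were used, the peaks cannot be assigned to a cell type.

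UNC-42 is a paired-like homeodomain protein known for setting the identity of sensory neurons, interneurons and motor neurons, including the command interneurons that drive locomotion. Homeodomains of this class bind sites built around the letters TAAT. The X chromosome of this species differs from the autosomes in that hermaphrodites carry a pair and males a single copy. In hermaphrodites a condensin-based dosage compensation complex binds along both X chromosomes and lowers their transcription. The complex is known to load at recruitment sites on X that carry a GC-rich motif, whose central letters GCGCAGGG are called the core below. The gene xol-1, which acts at the top of the sex decision, lies on X, as do the X signal elements that repress it.

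The strongest X summits and the strongest X summits with a core are shown because the results below turn on both. A summit is the position of highest signal within a peak. The 5 strongest X peaks are each named by the nearest 5′ end of a protein-coding gene and given in ce11 coordinates, with sequences credited to RefSeq's assembly WBcel235, the same as ce11. Capitals mark a searched word other than the short CANNTG, and of these only a GATAA at the edge of the window upstream of tbc-7 was found.
lin-2, chrX:12407448-12407568, plus strand: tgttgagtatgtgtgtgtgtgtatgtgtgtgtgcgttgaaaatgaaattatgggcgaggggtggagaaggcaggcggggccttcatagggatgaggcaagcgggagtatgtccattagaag
F54E4.4, chrX:14649390-14649510, plus strand: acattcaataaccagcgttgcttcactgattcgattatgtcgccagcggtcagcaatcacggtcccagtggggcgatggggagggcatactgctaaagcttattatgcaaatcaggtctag
tbc-7, chrX:5129584-5129704, plus strand: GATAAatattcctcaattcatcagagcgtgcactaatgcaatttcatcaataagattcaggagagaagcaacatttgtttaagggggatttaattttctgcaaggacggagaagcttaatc
wdr-5.2, chrX:14356963-14357083, plus strand: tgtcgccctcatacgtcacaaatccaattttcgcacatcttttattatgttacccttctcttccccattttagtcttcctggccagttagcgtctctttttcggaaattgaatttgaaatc
sma-9, chrX:10766214-10766334, plus strand: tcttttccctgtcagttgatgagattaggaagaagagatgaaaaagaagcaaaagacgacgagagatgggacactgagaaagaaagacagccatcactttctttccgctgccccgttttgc
The first and second windows are close to 50% GC (50.4% and 49.6%), and the third is 36.4% GC.

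In the next set, capitals mark the core within 100 bp of an X summit. The first 5 come from the 5 strongest X peaks that hold a core, 1 copy from each, the copy closer to the summit where a peak holds 2. The copy named by cest-16 lies in an intron of mom-1. Each is written on the strand that reads the core. The last, upstream of xol-1, was added after its values were seen.
F22H10.2, chrX:16682158-16682193, minus strand: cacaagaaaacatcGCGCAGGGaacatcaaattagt
cest-16, chrX:6296562-6296597, plus strand: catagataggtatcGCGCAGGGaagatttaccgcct
W02H3.3, chrX:11094111-11094146, minus strand: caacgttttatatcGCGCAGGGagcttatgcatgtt
nspc-17, chrX:14525886-14525921, minus strand: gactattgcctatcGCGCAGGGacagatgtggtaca
gtr-1, chrX:806660-806695, plus strand: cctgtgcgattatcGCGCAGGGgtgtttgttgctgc
xol-1, chrX:8036387-8036422, minus strand: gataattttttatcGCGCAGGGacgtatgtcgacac
In each of these 6 copies, TC came just before the core, and in 5 of the 6 an A came just after it. The exception was the copy near gtr-1, where G followed. The second copy of the mom-1 intron had TG before it and G after it.

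X carried more optimal peaks than any autosome. The 1048 peaks were 21.9% of the list (95% exact Clopper-Pearson interval 20.8% to 23.1%). X has 17.7% of the sequence and 13.7% of the protein-coding genes. That was 59.1 peaks per Mb on X against 32.4 to 57.1 on the 5 autosomes, so the densest autosome came close. Per 100 protein-coding genes there were 38.4 peaks on X against 13.6 to 29.9 on the autosomes. The wider gap per gene goes with gene density, which was 154 genes per Mb on X and 188 to 239 on the autosomes. In the 4780 strongest entries of each replicate list, X held 1067 (22.3%) in replicate 1 and 1066 (22.3%) in replicate 2. Overlapping intervals were few: the X peaks merged into 981 regions, of which 67 held 2 summits.

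No test between chromosomes was made, since there is 1 X chromosome, 1 group and no count of reads. Each X value is set beside the range over the 5 autosomes and beside both replicate lists. Intervals treat peaks, genes or copies as independent and cover counting error only. The depth of the libraries is unknown.

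Peaks on X were no stronger than peaks elsewhere. The signal of a peak is the score its authors' caller gave it, on a scale that holds within a list only. The median was 139 on X, with quartiles at 105 and 207, against medians of 136 to 139 on the autosomes. The 95th centile was 386 on X and 352 to 418 on the autosomes. In the replicate 1 list the X median was 65.0 and the autosomes spanned 62.2 to 64.6. In the replicate 2 list it was 76.1, against 76.3 to 78.9, so the small difference in the medians had opposite signs in the 2 lists. X also kept about the same share at every rank. It held 22.0% of the 50 strongest peaks (11.5% to 36.0%), 22.4% of the 500 strongest (18.8% to 26.3%) and 22.0% of the 2390 strongest (20.4% to 23.7%). The weakest optimal peak on X had a signal of 81.8, and the strongest X entry left out of the optimal set had 81.6. The relaxed pooled list, which feeds the IDR step, held 4854 entries on X, and 21.6% of them were optimal. On the autosomes 19.7% were, with a range of 18.1% to 21.1%.

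**Figure D1:**
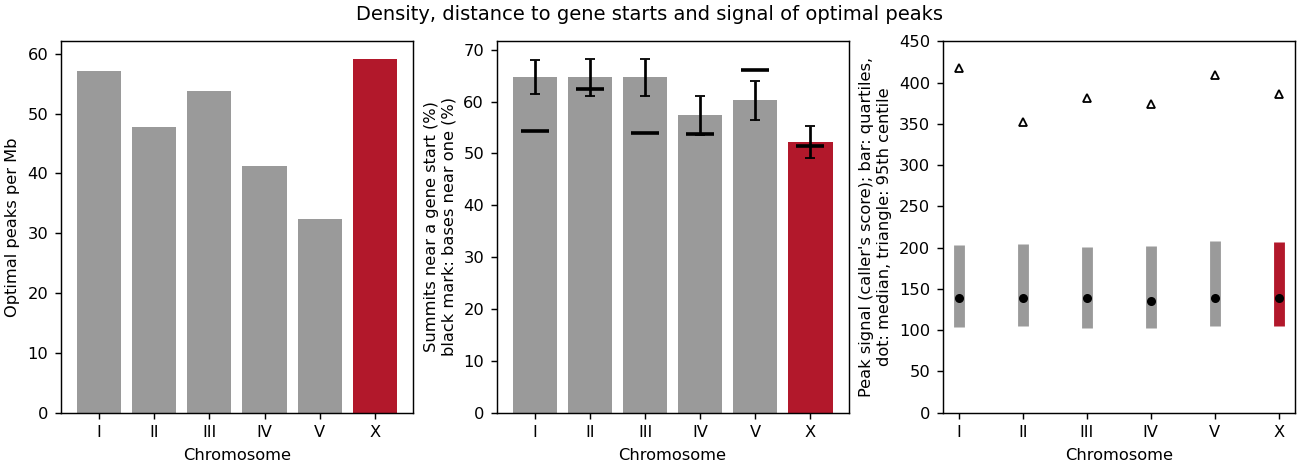
Optimal peaks by chromosome, with X in red: peaks per Mb (left), the share of summits with a protein-coding 5′ end no more than 2000 bp away, with 95% exact intervals, and, as black marks, the share of bases that near (middle), and the peak signal with quartiles, median and 95th centile (right). X has 59.1 peaks per Mb, 52.2% of summits near a 5′ end and a median signal of 139.

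Most X peaks were found in both replicates, as the optimal list was chosen for peaks whose ranks repeat between them, and the share is a description. A summit within 100 bp was present in both relaxed replicate lists for 1010 of the 1048 (96.4%, interval 95.1% to 97.4%), and the autosomes spanned 94.8% to 96.7%. For 821 (78.3%) it was among the 4780 strongest of each replicate, and for 16 it was in neither top set. The signals of the 2 replicates had a Spearman rank correlation of 0.786 over the X peaks found in both lists, given as a description since these peaks share both libraries.

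Summits were spread along X more evenly than along the autosomes. In 20 equal bins X held 27 to 72 summits a bin, a ratio of 2.67 between the fullest and emptiest bin. The same ratio was 3.35 to 14.4 on the autosomes. The SD over bins was 22.5% of the mean on X and 29.5% to 58.2% on the autosomes. The 10 outer bins, 5 at each end, held 49.0% of X summits and 47.1% of X gene starts. On chromosomes II and V these bins held fewer summits than gene starts, 31.8% against 48.0% and 29.1% against 47.5%. On the other 3 autosomes the shares of summits (39.6% to 40.2%) were within 2 points of those of gene starts. For the outer bins, the contrast between X and autosomes relative to genes thus rested on II and V. Bin by bin, X had 24.8 to 54.6 summits per 100 gene starts. The same measure ran from 10.5 to 71.3 on I, 12.7 to 50.4 on III and 15.03 to 37.3 on IV. The spans of I and III were wider than that of X, and the span of IV was narrower. The median signal per bin on X ran from 122 to 169.

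**Figure D2:**
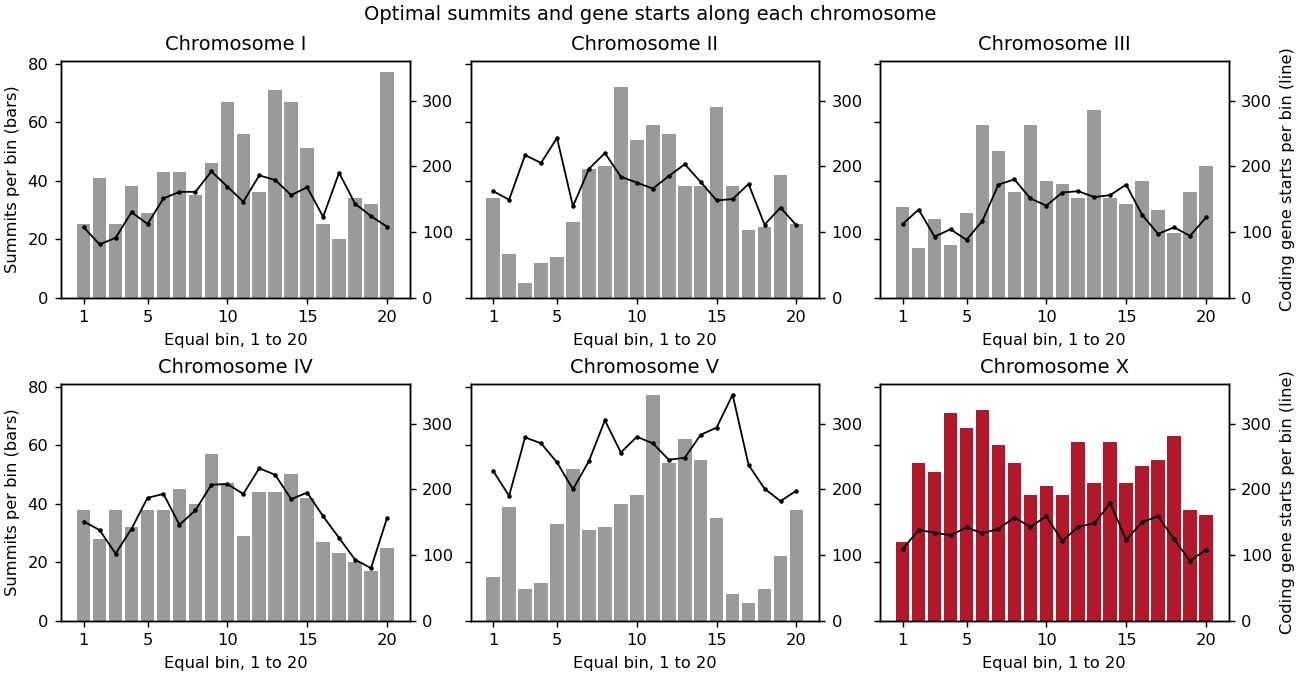
Optimal summits (bars, left axis) and protein-coding gene starts (line, right axis) in 20 equal bins along each of the 6 chromosomes, X in red. On X the bins hold 27 to 72 summits, and the 10 outer bins together hold 49.0% of them.

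Distances between neighbouring summits on X varied widely. Their median was 8127 bp, and the autosomes' medians were 7535 to 10780 bp, so X lay within their range. The quartiles were 2216 and 22712 bp. Of 1047 distances, 69 were under 500 bp, 113 under 1 kb and 408 under 5 kb. On X 73 distances reached 50 kb, a count not made for the autosomes. The 90th centile was 42433 bp against 45037 to 78710 bp on the autosomes. The upper quartile and the longest distance, 210.7 kb, lay within the autosomes' ranges (22676 to 34982 bp and 194.3 to 781.8 kb).

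The densest 100 kb of X, chrX:2451333-2551332, held 18 summits over 14 gene starts. Their signals ran from 86.2 to 289 with a median of 152, and 17 of the 18 were in both replicate lists. Summits there fell inside fox-1, an RNA-binding X signal element, smvt-1 and syg-1, an immunoglobulin protein that places synapses. The longest empty stretch was 210.7 kb (chrX:1627154-1837893), between a summit nearest the F-box gene fbxb-58 and one near a gene without a symbol. It holds 36 coding gene starts, 3 of them of the fbxa class, and 21 relaxed entries, the strongest at 63.5. Next came 163.9 kb between rgs-2, a regulator of G protein signalling, and bcat-1, an aminotransferase of branched-chain amino acids, with 19 gene starts. The third, 141.7 kb between F53H4.6 and C09G1.4, had 14. Each of these stretches held 21 to 27 relaxed entries, with signals of at most 71.6. The relaxed list is labelled as peaks and background, so these entries alone do not show binding there.

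X summits lay farther from gene starts. The median distance to the nearest protein-coding 5′ end was 1877 bp, against 976 to 1440 bp on the autosomes. A summit was assigned to that gene if it lay within 2000 bp, which held for 547 X summits (52.2%, interval 49.1% to 55.3%) and for 57.3% to 64.8% of summits on the autosomes. Of the bases of X, 51.4% lie that near, so the X share was close to that of its bases. On the autosomes together 62.5% of summits and 58.6% of bases were that near, although on chromosome V the summits' share (60.3%) was below the bases' (66.0%). Of the X summits, 63.5% were upstream of the nearest start. Of the X summits, 56.9% were intergenic against 41.0% of its bases, and 27.8% were in introns against 30.7%. Coding exons had 2.77% of summits against 19.5% of bases. That share, though low, was above the 1.45% of autosomal summits in coding exons (0.943% to 2.32% over the 5).

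Genes other than protein-coding ones held 99 X summits, 9.45% (interval 7.74% to 11.4%) against 3.50% of bases. The autosomes together had 5.52% of summits and 4.17% of bases, and chromosome V alone reached 9.14%. Of the 99, 92 overlapped ncRNA genes, a class with 2520 entries on X. On chromosomes I to V such summits numbered 25, 38, 21, 41 and 57. Those chromosomes have 809, 1089, 764, 1058 and 1524 ncRNA genes, so per ncRNA gene X was within the autosomes' range. Transfer RNA genes stood near 53 X summits, within 200 bp, which was 5.06% of X summits (3.81% to 6.56%) against 1.11% to 1.75% on the autosomes. X has 276 tRNA genes where each autosome has 57 to 78, and 57 of the 276 were near a summit (20.7%, interval 16.0% to 25.9%). The share of autosomal tRNA genes near a summit was 17.3%, with a range of 11.3% to 23.4%, so per tRNA gene X was within the autosomes' range. The strongest of these summits, inside W03G11.t1 next to the collagen gene col-181, had a signal of 403. In all, the median signal at tRNA genes was 145, and 138 at other X summits. The tRNA distances were chosen after the annotation classes had been seen.

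Counted by gene, 457 of 2731 X-linked protein-coding genes had an assigned summit, 16.7% (interval 15.4% to 18.2%). The autosomes together had 11.8%, and the highest autosome, at 16.6%, was level with X. Of the 457, 379 had 1 summit, 67 had 2, 10 had 3 and 1 had 4. The gene with 4 was ugt-50, a putative UDP-glucuronosyltransferase, and its strongest summit had a signal of 384. Among those with 3 were unc-1, a stomatin that acts with gap junctions, klp-13, a kinesin, lim-4, a LIM homeobox gene for neuron identity, and the neuropeptide gene nlp-76. Counting summits inside gene bodies gives other genes: unc-7, a 26.9 kb innexin gene, held 7, and fox-1 and lron-3 held 5 each. In all, 235 X-linked genes held at least 1 summit in their bodies, and 10 held 4 or more.

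The strongest peaks on X were mostly distant from gene starts. Of the 15 strongest, 12 lay more than 2000 bp from the nearest 5′ end, whereas 52.2% of all X summits lay within that distance. The same count was not made for the strongest autosomal peaks. The 15 lay between ranks 7 and 76 of the whole list. The strongest was in an intron of lin-2, a scaffold protein of cell junctions, 6533 bp from its start. Its signal was 1004 in the pooled list, 454 in replicate 1 and 540 in replicate 2, ranks 5 and 7 in those lists. A summit upstream of F54E4.4 by 3958 bp had 923, with 438 and 483 in the replicates. One 4636 bp upstream of tbc-7, a Rab GTPase-activating protein, had 913, with 423 and 491. These 3 peaks were among the 15 strongest entries of both replicates. The fourth, nearest wdr-5.2 at 6905 bp, lay in an intron of the potassium channel gene irk-3 and had a signal of 839.

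The other 11 of the 15 had signals from 817 down to 563. A summit 3008 bp upstream of sma-9, a zinc finger factor of body size signalling, had a signal of 817. One 13020 bp into mbl-1, the muscleblind splicing factor, had 816, with 353 and 465 in the replicates. The summit 2373 bp upstream of lim-4 had 662, with 302 and 361. The 3 within 2000 bp of a start were upstream of lin-18, nlf-1 and apl-1. The gene lin-18 encodes a Ryk receptor for Wnt ligands, and its summit, 747 bp upstream, had a signal of 689. For nlf-1, which helps place the NCA sodium leak channel, it was 604 at 1229 bp. For apl-1, related to the amyloid precursor protein, it was 584 at 878 bp. The remaining ones were nearest cest-19, frm-3, C25G6.1, F57G12.1 and tmem-145, with signals from 746 down to 563. The peak nearest tmem-145, in an intron of W03G11.4, had rank 39 in replicate 1 and 127 in replicate 2.

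**Figure D3:**
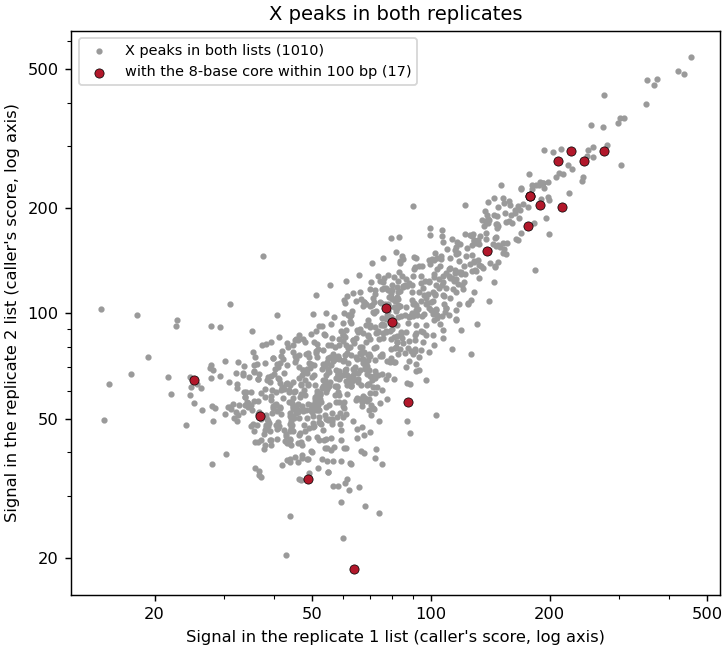
Signal of the 1010 X peaks with a summit in both replicate lists, replicate 1 against replicate 2, both axes logarithmic, and in red the 17 peaks with the core within 100 bp of the summit. The strongest point is the lin-2 intron, at 454 and 540. The strongest red point, near F22H10.2, is at 274 and 290, below the top of the cloud, and the weakest red points lie near its lower edge.

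Nervous system genes on X had peaks at differing rates. The lists hold known genes by role, and a member counts if it had an assigned summit, against 16.7% of all X-linked genes. Synapse and axonal transport genes had the highest share among lists of more than 2 genes, 10 of 14 (71.4%, interval 41.9% to 91.6%), and the autosomal members of that list had 34 of 50 (68.0%). Their median signal was 209, and that of all 457 X-linked genes with a summit, taking the strongest of each, was 150. For unc-10, the RIM scaffold of active zones, the signal was 365, with 152 and 213 in the replicates, 1241 bp upstream. The AP-2 adaptor subunit apa-2 had 295 at 714 bp upstream. The active zone organiser syd-2 had 246 and the adhesion protein nlg-1, neuroligin, 240. The 4 without an assigned summit were cpx-2, dyn-1, lin-2 and mig-13, although the strongest X peak of all lay inside lin-2.

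Guidance and adhesion genes had 16 of 38 (42.1%, interval 26.3% to 59.2%), and on the autosomes 28 of 74 (37.8%). After lin-18 came unc-115, an actin-binding protein of axon guidance, with a signal of 459 at 178 bp upstream, and 210 and 252 in the replicates. The immunoglobulin gene igcm-4 had 397 and sdn-1, the syndecan, 290. Among the 22 without an assigned summit were unc-6, the netrin, and slt-1, the Slit ligand, as well as rig-3, whose nearest summit was 2917 bp upstream with a signal of 125. A stronger summit, of 225, lay in an intron of rig-3, 3373 bp from its start. Both lists' X shares thus lay near their autosomal shares.

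Receptor, channel and peptide genes were closer to the X background. Channels and innexins had 9 of 34 (26.5%, interval 12.9% to 44.4%), and 19 of 102 on the autosomes (18.6%). The X members were led by nlf-1, then unc-1 at 361, the calcium channel gene unc-2 at 209 and the innexin gene unc-9 at 203. Introns of unc-2 held stronger summits, of 422 and 361, that were nearest the start of igcm-3 and beyond the limit. The innexin gene unc-7 had 1 assigned summit, of 95.4, although 7 lay inside its body. Transmitter receptors had 6 of 26 (23.1%), below the 21 of 63 on the autosomes (33.3%). Among the 6 were the nicotinic subunit acr-12 at 224 and the dopamine receptor dop-4 at 143. They also included lev-9, which clusters acetylcholine receptors, at 139, and dop-6 at 138. The others were lgc-47 and acr-2, whose introns held stronger summits beyond the limit, of 480 and 272 and of 358. Neuropeptide genes had 7 of 37 (18.9%), while on the autosomes 6 of 108 had one (5.56%). The strongest, nlp-14, had a signal of 490, at a summit inside its coding exon and with 193 and 292 in the replicates. It was followed by the insulin-like ins-39 at 292, nlp-76 at 230 and nlp-49 at 161. The nlp-76 summit lay in an intron of nhr-17 and within 200 bp of a tRNA gene. Neuropeptide receptors had 7 of 38 (18.4%) and 14 of 72 on the autosomes (19.4%), with npr-9 at 272 and then sprr-1, npr-40 and frpr-17 between 112 and 91.4. Touch receptor neuron genes had 0 of 8, which allows a share of up to 36.9%, and 3 of 10 on the autosomes. None of these differences between X and autosomes was tested.

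Of the homeobox and neuron identity genes, 8 of 34 had a summit (23.5%), and 21 of 96 on the autosomes (21.9%). The highest were sox-3 with 411, lim-4 with 319 at 1680 bp inside the gene, ceh-39 with 187 and fax-1, a nuclear hormone receptor of interneurons, with 161. The COE factor gene unc-3 had none within 2000 bp but 1 in an intron 4779 bp from its start, with a signal of 217. Nuclear hormone receptor genes had 7 of 27 on X (25.9%, interval 11.1% to 46.3%) and 10 of 247 on the autosomes (4.05%). They included nhr-48 with 210, nhr-3 with 207, the steroid receptor daf-12 with 174 and nhr-1 with 172. The difference between X and the autosomes was not tested. Chemoreceptors had 1 of 34 on X (2.94%, interval 0.0744% to 15.3%), srd-43 with 182, and 7 of 1276 on the autosomes (0.549%).

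Genes outside the nervous system gave mixed shares. Heterochronic and vulval genes had 5 of 12 (41.7%), and 10 of 31 on the autosomes (32.3%). The 5 included daf-12, egl-17, a fibroblast growth factor, with 172, and hbl-1, the hunchback homologue, with 121, besides lin-18. Of these, lin-18 and egl-17 are also counted in the guidance and adhesion list, and daf-12 in that of nuclear hormone receptors. Likewise unc-2 is counted among both synapse and channel genes, and fax-1 among both identity genes and nuclear hormone receptors. The gene ceh-39 is counted among identity genes and among those of sex determination and dosage compensation. Body wall muscle had 4 of 16 (25.0%) and 9 of 43 on the autosomes (20.9%). The 4 were dyc-1 at 292, the actin gene act-4 at 228, the troponin gene tni-1 at 223 and unc-97 at 134. Collagen and cuticle genes had 3 of 31 (9.68%), namely col-181, col-176 and col-185, and 8 of 155 on the autosomes (5.16%). Vitellogenins had 0 of 5 (upper limit 52.2%). Both ribosomal protein genes on X counted: rpl-11.2 with 248 at 374 bp upstream, and rpl-25.1 with 135 at exactly the limit of 2000 bp, inside a coding exon of F55D10.4. On the autosomes 34 of 77 ribosomal protein genes counted (44.2%). Over the 16 lists, 82 of 353 X-linked members had a summit (23.2%), and 375 of the 2378 genes in no list (15.8%).

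**Figure D4:**
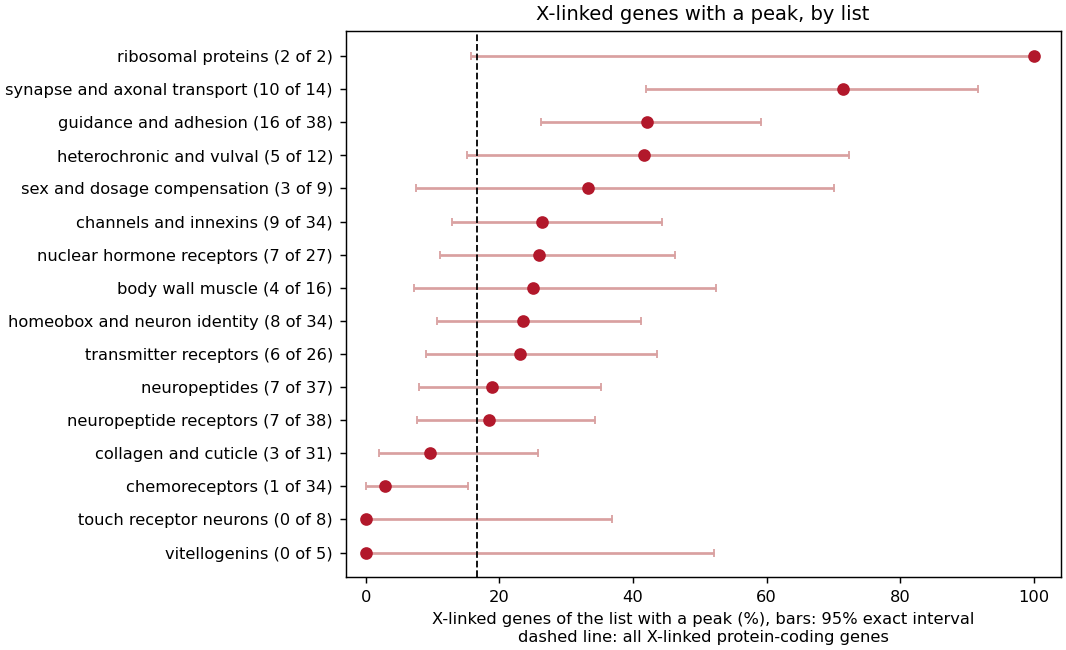
Share of X-linked genes of each of 16 lists with a summit within 2000 bp of the 5′ end, with 95% exact intervals; the dashed line is the 16.7% of all X-linked protein-coding genes. Synapse genes (10 of 14) and guidance genes (16 of 38) have intervals wholly above the line, and chemoreceptors (1 of 34) wholly below it.

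Genes of sex determination and dosage compensation had assigned summits in 3 of 9 (33.3%), and in 4 of 18 on the autosomes (22.2%). The summit of ceh-39, an X signal element, lay 177 bp upstream with a signal of 187. That of sdc-1, a zinc finger protein of the dosage compensation complex, had a signal of 93.4, and that of nfya-1, a subunit of the factor NF-Y, 84.1. In the replicates ceh-39 had signals of 81.8 and 101. The 3 differ in strength, since the last pair lay near the lower end of the optimal list. The nearest summit of xol-1 was 4763 bp upstream with a signal of 175, and a second, 4962 bp upstream, had 387 and held 2 cores. For sex-1, a nuclear receptor X signal element, it was 7954 bp away with 106. For sdc-2, the gene that directs the complex to X, it was 30456 bp away with 138. In fox-1 it was inside the gene at 3284 bp, with 107. A stronger summit inside fox-1, of 242, was nearest the start of T07D1.3.

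In the 201 bp around each summit, 7 words were searched for on both strands, none of which contains another. They were the core, the GA repeat GAGAGAGA, the homeodomain word TAATTA and its form with TAAT and ATTA set 3 bases apart, the GATA factor word GATAA, the TATA-like word TATAAA and the E-box word CANNTG. The core stood highest over its background on X, at 19.1 times its share of all X windows. It was at 17 of 1048 X summits (1.62%, interval 0.948% to 2.58%), at 1 of 2096 windows 1000 bp to either side (0.0477%), and in 0.0851% of all X windows of that length. On the autosomes it was at 7 of 3732 summits (0.188%, interval 0.0754% to 0.386%), with 0 to 0.412% on single chromosomes, and in 0.0553% of all windows. Within the lists of single replicates the X share was 1.5% and 1.78%. GC content at summits was 43.4% on X and 41.3% to 42.0% on the autosomes, so a word of the same letters read backwards, GGGACGCG, was also counted, after the core's values had been seen. It was at 0.573% of X summits (0.210% to 1.24%) and 0.375% of autosomal summits. Those shares were 6.91 and 7.20 times its shares of all windows on X and on the autosomes. The core was at 19.1 times on X and 3.39 times on the autosomes.

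The same overlap can be counted from the copies of the core in the genome, which is no second line of evidence. X has 81 copies of the core, 4.57 per Mb, and the autosomes 233, 2.82 per Mb. A summit lay within 100 bp of 21 of the 81 on X (25.9%, interval 16.8% to 36.9%) and of 7 of the 233 on the autosomes (3.00%, interval 1.22% to 6.09%). The 21 copies fell in 17 peaks, 4 of which held 2, so they are not all independent. With the strongest entries of replicate 1 alone these were 20 and 6 copies, and with replicate 2 alone 23 and 5. Of the 82 copies of the backward word on X, 7 were at a summit (8.54%), and 14 of 220 on the autosomes (6.36%).

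**Figure D5:**
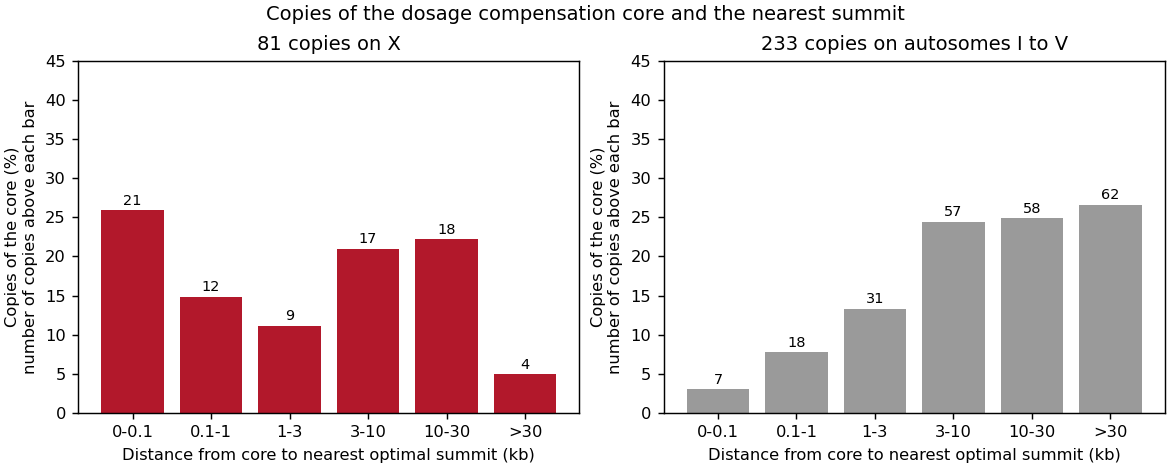
Distance in kb from each copy of the core to the nearest optimal summit, in 6 classes, for 81 copies on X (left) and 233 on the autosomes (right), as a share of copies with the number above each bar. On X 21 copies lie within 0.1 kb of a summit, and on the autosomes 7.

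The copies at X summits also shared letters beyond the core that the search did not use. In 11 of the 21 (52.4%, interval 29.8% to 74.3%) the core had TC just before it and A just after it, as in most of the sequences shown above. Of the 60 other copies on X 2 did (3.33%, interval 0.406% to 11.5%), and of the 233 autosomal copies also 2 (0.858%). A match of letters is a description and does not show what was bound there. The letters on each side were compared after the copies at summits had been seen.

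The 17 X peaks with a core were stronger than X peaks at large. Their signals ran from 83.1 to 563 with a median of 354, and the median of all X peaks was 139. Of the 100 strongest X peaks 9 had a core, and of the 524 strongest 13. None of the 15 strongest X peaks had one. All 17 had a summit in both replicate lists, where 96.4% of all X peaks did. In both top sets were 13 of the 17, near the 78.3% of all X peaks. Of the 17, 11 were intergenic, 4 in introns, 1 in a coding exon of pks-1 and 1 in a gene of another biotype. Only 6 were assigned to a gene at the 2000 bp limit, so most of these sites carry a gene name by nearness alone.

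The strongest, 2559 bp from the start of F22H10.2, had a signal of 563, with 274 and 290 in the replicates. A summit in an intron of mom-1, a Wnt secretion gene, had 519 and 2 cores, with 244 and 273. One nearest W02H3.3 also had 2 cores and a signal of 513, with 226 and 291. These 3 had ranks 77, 98 and 101 in the whole list. Others with 2 cores were the summit near gtr-1, at 409, and the one 4962 bp upstream of xol-1. The latter had a signal of 387 in the pooled list, 178 in replicate 1 and 216 in replicate 2, ranks 231 and 237. It was level with the summit near F20B6.9, at 388. Y41G9A.17 held 2 summits with a core in its introns, of 393 and 167. The nspc-17 and ins-39 peaks, at 489 and 292, were 796 and 641 bp upstream of those genes. The weakest were near stn-2, sedl-1, dpy-23 and a gene without a symbol, between 96.1 and 83.1. For stn-2 the replicates differed most, with ranks 2375 and 15469.

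Of the homeodomain words, TAATTA was no more frequent at X summits than around them. It was at 9.35% of X summits (interval 7.66% to 11.3%), at 10.9% of flanking windows and in 10.2% of all X windows. On the autosomes it was at 11.4% of summits and in 9.12% of windows, with 9.59% to 14.7% of summits on single chromosomes. TAAT followed by ATTA 3 bases later was at 1.53% of X summits, 1.34% of flanks and 1.13% of windows, and at 1.98% of autosomal summits. Its interval at X summits, 0.875% to 2.47%, includes the shares of flanks and windows. The strongest X summit with this spacing was the one upstream of xol-1 that also holds 2 cores, in chrX:8036356-8036394. GC content was 43.4% at X summits and 34.9% in their flanks. TATAAA, which like TAATTA has only A and T, was at 0.503 times its share of X windows. For TAATTA that ratio was 0.914. Whether base content bears on these shares was not tested. The absence of the homeodomain words from most summits says nothing of the factor, since only these letters were searched.

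GA repeats were less frequent on X than elsewhere. GAGAGAGA was at 69 X summits (6.58%, interval 5.16% to 8.26%) and at 10.8% to 15.7% of summits on single autosomes. Flanking windows had 1.00% and all windows 1.12% on X, so the word was 5.90 times as frequent at X summits as in windows, and 7.59 to 10.8 times on the autosomes. A strong example was the summit in an intron of kin-20, a casein kinase, with a signal of 425. AT-rich words were rarer at X summits than in X windows: GATAA at 30.1% against 38.8%, and TATAAA at 11.5% against 22.8%. The E-box word CANNTG was at 59.2% against 56.0%. The GATAA and TATAAA shares at autosomal summits, 29.8% and 12.8%, were close to those on X.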

How the data were processed

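Peak lists of UNC-42 ChIP-seq from 2 biological replicates were used as deposited, in narrowPeak format. Which aligner and peak caller made them is not given in the sources used here, nor is the depth. The authors deposited relaxed lists for each replicate and for the pooled replicates, and a pooled list past the optimal IDR threshold. The deposited signal is the caller's score per peak, used to describe and rank peaks within a list. The control was not analysed here. A summit is the interval's start plus the deposited offset, given 1-based on ce11.

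Genes came from Ensembl release 115 on WBcel235, the same assembly, with 19973 protein-coding genes on 6 chromosomes. Sequence was the RefSeq sequence of that assembly. Each summit was given the gene with the nearest 5′ end, and counted for it within 2000 bp. A summit in several features took the first of these that applied: UTR of the 5′ end, exon with coding sequence, UTR of the 3′ end, intron, any non-coding or other gene. The rest were intergenic. Words were searched on both strands in 201 bp around each summit, in windows 1000 bp to each side and in windows tiling each chromosome. Summits within 100 bp were counted as shared. Replicates were compared over the 4780 strongest entries of each list. Intervals are 95% Clopper-Pearson (scipy 1.17.1, pandas 2.3.3, Python 3.11.15). The functions were tested on simulated peaks and sequence.

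The genes named are the nearest of the 15 strongest X peaks, up to 4 per list, the 5 with most summits, both ends of the 3 longest empty stretches, and genes of interest fixed by name, while genes at sites with a core were named after their values were seen. The X peaks, lists and words were chosen with earlier results of these data known.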

Additional observations from a re-analysis of the deposited data

How the results depend on the processing

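Of 164 values recomputed, 124 stayed near the main value and 40 moved. A value counts as near if it is within the 95% interval of a share, within 1.5 times a count, or within the SD between the single-replicate values of the signal ratio and the median distance. With each replicate left out in turn, the share of X peaks was 22.3% both times, the median distance between X summits ranged from 7593 to 8163 bp, and the signal ratio of X to autosomes from 0.985 to 1.02. Keeping the stronger 2390 peaks, fewer by construction, gave 29.7 X peaks per Mb, a median distance of 19709 bp, 9.12% of X genes with a peak and 50 list genes with a peak. Merging overlapping intervals gave a median distance of 9638 bp, and every relaxed entry gave X 20.4%. The share of X genes was 11.9% with a limit of 1000 bp, 23.0% with 5000 bp, 19.5% counting every gene start within 2000 bp, and 21.8% counting gene bodies with 2000 bp upstream. List genes with a peak numbered 53 at 1000 bp. By single list, 6 of the 16 counts moved at 1000 bp and 4 at 5000 bp. At 1000 bp neuropeptide receptors fell from 7 to 2 and body wall muscle from 4 to 1. At 5000 bp transmitter receptors rose from 6 to 13 and neuropeptides from 7 to 11. Shares of single lists thus depend on the limit. With 200 bp to each side, shares of X summits rose to 10.4% for GAGAGAGA, 17.2% for TAATTA, 2.48% for TAAT and ATTA 3 bases apart, 53.5% for GATAA, 30.4% for TATAAA and 81.9% for CANNTG, as wider windows hold more letters. Both replicate lists held 78.7% of X summits within 50 bp and 99.5% within 200 bp. The density on ce10 was not run, since lengths of that build were not used here. No paired analysis was possible because the study has 1 group. With 2 replicates of unknown depth, an entry missing from a list cannot be read as absence of binding.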

Other observations

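The relaxed pooled list held 3806 X entries outside the optimal set, with a median signal of 34.0. The core GCGCAGGG was at 6 of these summits (0.158%), against 1.62% of the optimal X summits, and its backward word at 8 (0.210%). GAGAGAGA was at 3.73% of them, TAATTA at 13.2% and TAAT with ATTA 3 bases apart at 2.31%. The homeodomain words were thus more frequent at the weaker X entries than at the optimal ones (9.35% and 1.53%), and the core less frequent. Other AT-rich words were also more frequent at the weaker entries: GATAA at 35.3% against 30.1%, and TATAAA at 16.7% against 11.5%. The 2.31% of the spaced homeodomain word lay within its interval at optimal X summits (0.875% to 2.47%). No test of these differences was made.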
